A study of Rattus norvegicus with 48 samples.

Results

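The miR-34 family was followed in rat blood plasma during the healing of a drilled skull defect. It comprised 5 mature miRNAs that were chosen by name from the 645 rat miRNAs in the deposited count table, namely rno-miR-34a-5p, rno-miR-34b-5p, rno-miR-34b-3p, rno-miR-34c-5p and rno-miR-34c-3p. The rule used names alone and no measured value, although it was set with earlier results of these data known.

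Plasma of 12 rats was sequenced before surgery (baseline) and 1, 4 and 8 weeks after it, which gave 48 small RNA libraries. All animals were male and 12 weeks old at the time of surgery. The methods name the Sprague-Dawley strain, whereas another passage of the study names Wistar. All received the same calvarial (skull roof) defect, which was left empty or filled with a collagen/hydroxyapatite (CHA) scaffold that was bare, carried plasmid DNA for BMP2 and miR-590-5p, or carried extracellular vesicles of mesenchymal stromal cells (MSC-EVs). By microCT, 6 of the rats were selected as strong (labelled good) and 6 as weak (labelled bad) regenerators from a larger set of operated rats. The filling of each rat is not given in the labels and was unequally spread over the 2 outcome groups, so that filling and outcome cannot be told apart here. Rats left unoperated were not among the groups, so that healing cannot be told apart from ageing or handling between the time points. Baseline samples are labelled with unknown regeneration and were placed by the outcome of the same rat.

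miRNAs are short RNAs that are cut from a hairpin precursor and, loaded into Argonaute, repress mRNAs that pair with bases 2 to 8 of the miRNA, the seed. The miR-34 genes are known as direct transcriptional targets of the tumour suppressor p53, and their products repress cell cycle and survival genes such as cyclin-dependent kinases, Bcl2 and Notch ligands. Mir34a is broadly expressed, while Mir34b and Mir34c share a primary transcript that is best known from ciliated epithelia and testis. In bone, miR-34 is known for effects on both osteoblasts and osteoclasts. None of the values below measures p53.

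The sequences are shown because the family is defined by its seed, which is written in capitals, and because the near identity of its b and c members limits how reads can be told apart. They were taken from RefSeq (rat assembly GRCr8), run 5′ to 3′, and were found for all 5 members. The 5p arms of the 3 genes share the seed GGCAGUG.
rno-miR-34a-5p: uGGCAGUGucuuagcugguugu
rno-miR-34b-5p: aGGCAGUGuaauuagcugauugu
rno-miR-34c-5p: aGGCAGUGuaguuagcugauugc
The 3p arms, cut from the other side of the Mir34b and Mir34c hairpins, share a different seed, AUCACUA.
rno-miR-34b-3p: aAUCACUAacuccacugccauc
rno-miR-34c-3p: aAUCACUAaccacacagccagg
Of all RefSeq rat mature miRNAs, 5 carried the miR-34 5p seed, the other two being members of the related miR-449 family.
rno-miR-449a-5p: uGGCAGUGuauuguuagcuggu
rno-miR-449c-5p: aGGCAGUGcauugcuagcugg
Counted from the 5′ end of rno-miR-34b-5p, rno-miR-34c-5p differed from it at 2 of 23 positions (A11G and U23C). The 3p arms of the same genes differed at 5 of 22 positions. The authors' mapping to miRNAs allowed 1 mismatch, so that reads of rno-miR-34b-5p and rno-miR-34c-5p could in part have been exchanged, and their separate values are uncertain to that extent.

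The hairpins are printed to show from which arm each member was cut, with the mature arms in capitals. Mir34a lies at chr5:165815952-165816053 on the plus strand of GRCr8, within a long non-coding RNA gene.
Mir34a: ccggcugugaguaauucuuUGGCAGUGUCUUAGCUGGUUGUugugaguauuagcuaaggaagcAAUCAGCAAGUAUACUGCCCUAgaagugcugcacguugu
Mir34b and Mir34c lie 441 bases apart on the minus strand, at chr8:60306609-60306692 and chr8:60306091-60306167, both within the bounds of the protein-coding gene Hoatz and beside Btg4.
Mir34b: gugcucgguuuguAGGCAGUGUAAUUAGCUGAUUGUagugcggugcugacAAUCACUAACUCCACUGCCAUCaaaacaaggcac
Mir34c: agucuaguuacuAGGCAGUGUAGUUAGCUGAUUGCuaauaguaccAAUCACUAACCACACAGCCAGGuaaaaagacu

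The libraries held 393259 to 1586398 reads on miRNAs (median 796311). Levels are given as reads per 1000000 miRNA reads (RPM), in which 1 library's floor of 3 reads lay between 1.89 and 7.63 RPM. At week 8 all 12 libraries stood apart in the UniSp2 spike-in, a synthetic RNA added during extraction, with 91.1 to 144 UniSp2 reads per 1000 miRNA reads against 23.3 to 60.4 in the 36 libraries of the earlier time points. A lower miRNA content of the plasma and a different handling of the week 8 samples cannot be told apart. Among marker miRNAs of blood cells, the summed level of 4 red blood cell miRNAs had a median of 157897 RPM at baseline and 235291 RPM at week 8 (ranges 102266 to 201357 and 177486 to 311316), 4 platelet miRNAs had medians of 39379 and 32749 RPM, and 5 leukocyte miRNAs had medians of 32741 and 12468 RPM (ranges 15728 to 59469 and 9162 to 20855). The medians of 9 epithelial miRNAs were 13767 and 11340 RPM. The lists did not move as wholes at week 8 in the edgeR test described below. Of the red blood cell miRNAs, 2 were called higher and 1 lower (rno-miR-144-3p), and of the leukocyte miRNAs, 2 higher (rno-miR-142-3p and rno-miR-155-5p) and 3 lower (rno-miR-142-5p, rno-miR-146a-5p and rno-miR-150-5p). Of the platelet and the epithelial miRNAs, 1 each was called lower (rno-miR-24-3p and rno-miR-200a-3p), the liver miRNA rno-miR-122-5p was called lower (log2 fold change −1.18), and 0 of 3 muscle miRNAs were called. The part of these shifts in the results below was not tested. In plasma, fewer releasing cells and less RNA released per cell cannot be told apart either.

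Of the 5 members, 3 were read in every sample. rno-miR-34a-5p was the most abundant, with a mean of 269.8 RPM over the 48 samples, the 129th highest of 645 miRNAs. rno-miR-34c-5p followed with 92.3 RPM (179th) and rno-miR-34b-5p with 60.1 RPM (202nd). The 3p arms were far lower: rno-miR-34b-3p averaged 9.11 RPM and was read in 47 samples, and rno-miR-34c-3p averaged 7.03 RPM and was read in 42. The opposite arm of Mir34a, which is no member, gave only 44 reads in all, in 22 samples. The 5 mature members measured 22 or 23 bases, so that RPM compares them without a length term, although adapter ligation can still favour one sequence over another.

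At baseline rno-miR-34a-5p ranged from 229 to 458 RPM over the 12 rats (median 323, mean 333 ± 73.4 SD). At week 1 it ranged from 161 to 434 RPM (median 249), at week 4 from 163 to 407 RPM (median 294) and at week 8 from 93.2 to 302 RPM (median 192, mean 176 ± 63.9 SD). Levels thus overlapped widely up to week 4, and at week 8 10 of 12 samples lay below every baseline sample, with some overlap left.

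rno-miR-34b-5p ranged from 20.7 to 67.0 RPM at baseline (median 34.4, mean 40.5 ± 15.01 SD), from 9.49 to 70.5 RPM at week 1 (median 36.5) and from 7.59 to 61.1 RPM at week 4 (median 22.9). At week 8 it ranged from 57.7 to 258 RPM (median 127, mean 136 ± 62.4 SD). All but 2 of the week 8 samples lay above every baseline sample, and also above every week 4 sample.

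For rno-miR-34c-5p, transcribed together with rno-miR-34b-5p, the range was 56.3 to 118 RPM at baseline (median 80.9, mean 83.3 ± 18.8 SD). At week 1 it was 35.6 to 148 RPM (median 80.7) and at week 4 37.8 to 138 RPM (median 70.3). At week 8 it was 45.8 to 203 RPM (median 127, mean 127 ± 40.0 SD), and 7 of 12 samples lay above every baseline sample while 1 lay below them all.

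The 3p arms rested on few reads. rno-miR-34b-3p ranged from 5.83 to 17.3 RPM at baseline (median 11.5) and from 0 to 14.1 RPM at week 8 (median 2.36, or 1.5 reads), with 9 of 12 week 8 samples below every baseline sample. rno-miR-34c-3p ranged from 2.91 to 16.6 RPM at baseline (median 9.56) and from 0 to 16.9 RPM at week 8 (median 2.12), where it was not read in 5 samples. A count of 0 in a week 8 library allows up to 3.03 to 7.63 RPM, so that the low 3p values are bounds rather than levels. The plot of levels by sample shows all 5 members.

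**Figure D1:**
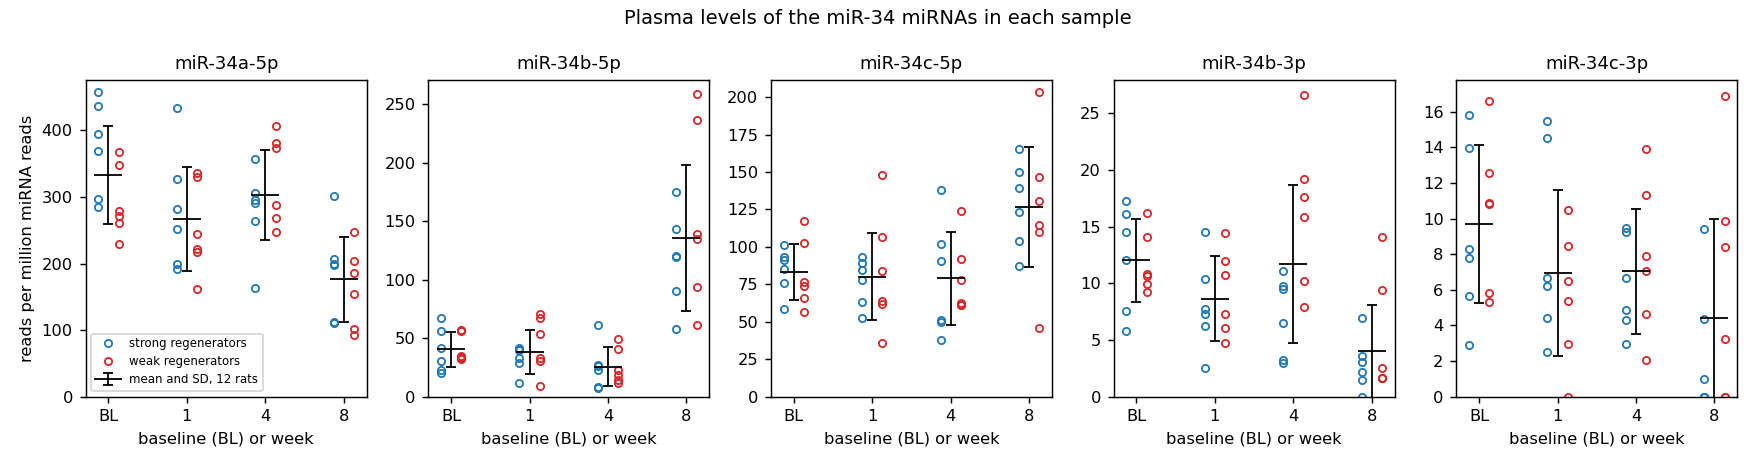
Reads per 1000000 miRNA reads (RPM, linear axes that differ between panels) of each miR-34 member in each of the 48 samples, by time point. Open circles are samples of strong (blue) and weak (red) regenerators, and black lines give the mean and SD of 12 rats (bars that would pass below 0 are cut at 0). At week 8 miR-34a-5p sat lower and miR-34b-5p higher than at baseline, with a mean of 176 against 333 RPM and of 136 against 40.5 RPM, although the rise of miR-34b-5p was not seen with UniSp2 scaling.

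The 5p arms kept the same order of mean levels up to week 4, and at week 8 some neighbours in the order no longer passed a test of difference. Neighbours in the order were compared within rats on log2(RPM + 1) by an exact two-sided paired permutation test (16 comparisons, Benjamini-Hochberg adjusted). At baseline, week 1 and week 4, rno-miR-34a-5p exceeded rno-miR-34c-5p, and rno-miR-34c-5p exceeded rno-miR-34b-5p, in 12 of 12 rats each (exact p = 0.000488, the smallest that 12 pairs allow, adjusted p = 0.000868). The mean log2 differences between the first 2 were 1.99, 1.75 and 1.99 at the 3 time points. At week 8 rno-miR-34a-5p exceeded rno-miR-34b-5p in 7 of 12 rats (mean log2 difference 0.42 ± 0.82 SD, exact p = 0.104, adjusted p = 0.119), and rno-miR-34b-5p and rno-miR-34c-5p differed by 0.04 ± 0.53 (exact p = 0.789, adjusted p = 0.789). A difference between these neighbouring 5p levels was therefore not shown, which does not mean that they were alike. rno-miR-34c-5p, which was not a neighbour of rno-miR-34a-5p in the week 8 order and was not tested against it, lay above it in 2 of 12 rats, with a mean log2 ratio of −0.46 ± 0.50 SD. rno-miR-34b-5p lay above its own 3p arm at baseline and week 1 in 12 of 12 rats and at week 4 in 9 of 12 (exact p = 0.00781, adjusted p = 0.0125). The 2 3p arms differed little, with rno-miR-34b-3p above rno-miR-34c-3p by 0.36 at baseline (exact p = 0.0176, adjusted p = 0.0256) and by 0.59 at week 4 (exact p = 0.0195, adjusted p = 0.0260). Their difference at week 1 was 0.46 (exact p = 0.0898, adjusted p = 0.111). At week 8 rno-miR-34c-3p had the higher mean level, but it exceeded rno-miR-34b-3p in only 5 of 12 rats. The mean log2 difference, rno-miR-34c-3p minus rno-miR-34b-3p, was then −0.32 ± 1.84 SD (exact p = 0.560, adjusted p = 0.597). The results between the 3p arms up to week 4 lay near the threshold and changed when some rats were left out. Without rat 7 or rat 25 the baseline difference had an adjusted exact p = 0.0511. Without rat 6, 7, 17, 25 or 26 the week 4 difference had an adjusted exact p = 0.0521. Without rat 21 the week 1 difference passed (adjusted exact p = 0.0312). Fewer pairs also raise the smallest p that the test allows. The difference itself lay between 0.32 and 0.45 at baseline and between 0.47 and 0.68 at week 4 without each rat.

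The summed level of the 5 members had means of 478 ± 89.6 RPM before surgery and 400.4 ± 103, 427 ± 96.3 and 447 ± 133 RPM afterwards (SD, n = 12). The make-up of the sum shifted at week 8. rno-miR-34a-5p made up 69.4% ± 5.39 of miR-34 reads at baseline, 66.7% ± 8.06 at week 1 and 71.6% ± 7.19 at week 4, and then 39.8% ± 10.01 at week 8. rno-miR-34b-5p went from 8.56% ± 2.97 at baseline to 30.2% ± 8.98 at week 8, and rno-miR-34c-5p from 17.5% ± 2.97 to 28.3% ± 3.96. Both 3p arms together went the other way, rno-miR-34b-3p from 2.53% to 0.887% and rno-miR-34c-3p from 2.01% to 0.836%. The plot of the make-up shows these shares.

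**Figure D2:**
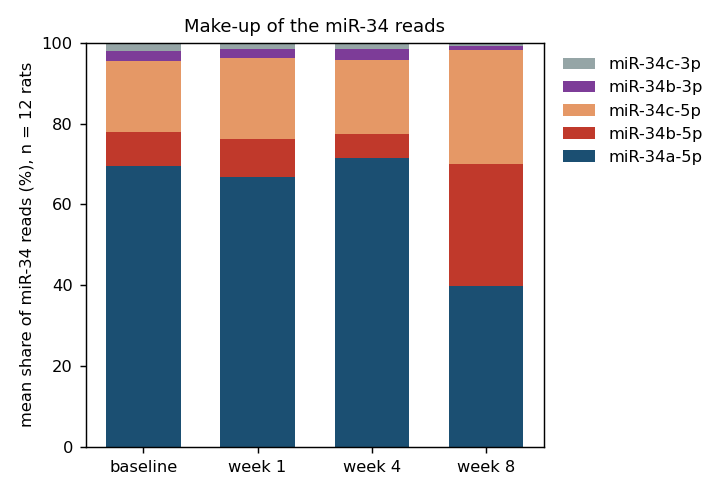
Mean share (%) of each member among all miR-34 reads of a sample, averaged over 12 rats at each time point, as stacked bars. miR-34a-5p filled 69.4% of the bar at baseline and 39.8% at week 8, where miR-34b-5p filled 30.2% and miR-34c-5p 28.3%.

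Whether the members changed from the presurgical level was asked at each week with edgeR's quasi-likelihood test over all 48 samples (trimmed mean of M values, TMM, scaling; false discovery rate, FDR, by Benjamini-Hochberg over all miRNAs tested, called below 0.05). At week 1, 50 of 232 tested miRNAs were called (21.6%), and none of the 3 members tested was among them. The filter on low levels left out the 3p arms at week 1. The log2 fold change of rno-miR-34a-5p was −0.22 (SE 0.16, unadjusted p = 0.156, FDR 0.322), with lower values in 10 of 12 rats. rno-miR-34b-5p and rno-miR-34c-5p gave 0.02 (SE 0.27) and 0.03 (SE 0.18), signs that turned with library-size scaling. None of the 5 members had an unadjusted p below 0.05 at week 1, and none was called by DESeq2 or limma-voom.

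At week 4, 27 of 645 miRNAs were called (4.19%), again without a member. rno-miR-34b-5p had a log2 fold change of −0.61 (SE 0.27, unadjusted p = 0.0307, FDR 0.227) and was lower than at baseline in 10 of 12 rats. With the rat as a replicate block, which pairs the samples of each animal, the value was −0.67 (SE 0.21, FDR 0.0498) and passed the threshold, and it also passed with UniSp2 scaling (−0.97, FDR 0.0307). DESeq2 (FDR 0.147) and limma-voom (FDR 0.125) left it uncalled. rno-miR-34a-5p gave −0.06 (SE 0.15), rno-miR-34b-3p 0.08 (SE 0.31), rno-miR-34c-5p −0.00022 (SE 0.18) and rno-miR-34c-3p −0.39 (SE 0.38). The sign of rno-miR-34b-3p turned with library-size and UniSp2 scaling, and that of rno-miR-34c-5p turned with RLE scaling, at values near 0.

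At week 8 every member was called, in opposite directions. rno-miR-34b-5p and rno-miR-34c-5p rose with TMM, library-size and RLE (median of ratios) scaling but not with UniSp2 scaling, while rno-miR-34a-5p and both 3p arms fell under all 4. The background was high: 250 of 620 miRNAs were called (40.3%), 88 higher (14.2%) and 162 lower (26.1%), and a call at week 8 alone sets no member apart.

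rno-miR-34b-5p had the largest rise, with a log2 fold change of 1.79 (SE 0.27, FDR 1.89e-07), a 3.45-fold difference, and was higher in 12 of 12 rats. rno-miR-34c-5p rose by 0.65 (SE 0.18, FDR 0.00303), 1.57-fold, and was higher in 11 of 12 rats. rno-miR-34a-5p changed by −0.86 (SE 0.16, FDR 1.004e-05), to 0.551 of its baseline level, and was lower in 11 of 12. The gene pair on chromosome 8 and the gene on chromosome 5 thus moved apart in their 5p arms.

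rno-miR-34b-3p fell by 1.53 on the log2 scale (SE 0.36, FDR 0.000511) and was lower in 11 of 12 rats, although it comes from the same hairpin as rno-miR-34b-5p. rno-miR-34c-3p changed by −1.09 (SE 0.43, FDR 0.0363) and was lower in 10 of 12. The call of rno-miR-34c-3p was not stable: with RLE scaling its FDR was 0.0670, with only the 2 time points in the fit 0.0724, and it exceeded 0.05 without any one of rats 3, 6, 7, 17, 21, 23 or 29 (log2 fold change −0.81 and FDR 0.144 without rat 29). The other 4 members were called whichever rat was left out.

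Scaling decided the direction of the rises. With the UniSp2 reads in place of TMM, the median log2 fold change of miRNAs with a mean of at least 10 RPM moved from −0.12 to −2.01, and 498 miRNAs were called lower and 1 higher. On that scale rno-miR-34b-5p gave −0.09 (SE 0.30, FDR 0.814) and rno-miR-34c-5p −1.20 (SE 0.20, FDR 6.13e-07), both above that median, and rno-miR-34a-5p gave −2.75 (SE 0.22), rno-miR-34b-3p −3.31 (SE 0.39) and rno-miR-34c-3p −2.83 (SE 0.43), all below it. The changes are therefore relative to the other plasma miRNAs, not amounts per volume. The plot of week 8 changes under 4 scalings gives the values side by side.

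**Figure D3:**
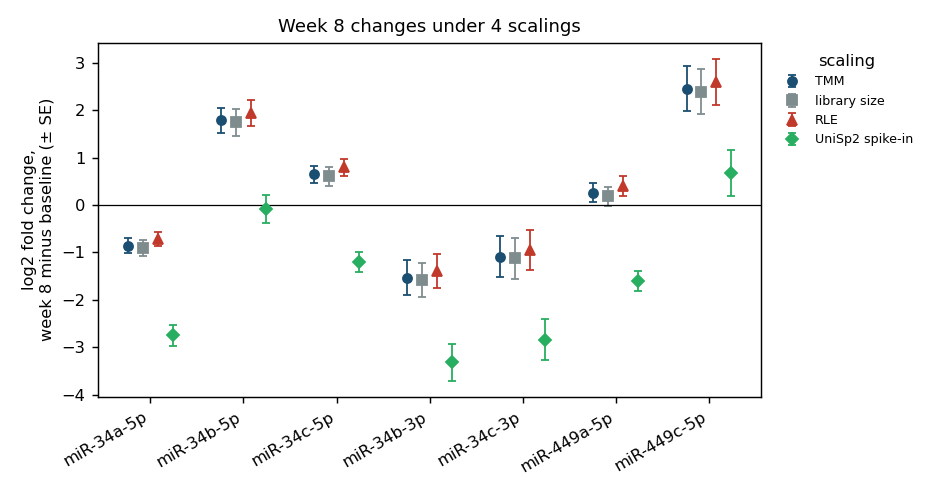
Log2 fold change from baseline to week 8 with its SE for the 5 miR-34 members and for the miR-449 miRNAs of the same seed, under 4 ways of scaling the 48 samples (linear axis, 0 is no change). TMM, library-size and RLE scaling gave like values (1.79, 1.74 and 1.94 for miR-34b-5p). UniSp2 scaling put every miRNA lower than the other scalings did (−0.09 for miR-34b-5p), though not every one below 0.

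Between week 4 and week 8 the shift had the same form, with 213 of 532 miRNAs called (40%). rno-miR-34b-5p rose by 2.40 (SE 0.28, FDR 4.59e-10), in 12 of 12 rats, and still passed in the same direction with UniSp2 scaling (0.89, FDR 0.00843). rno-miR-34c-5p rose by 0.65 (SE 0.18, FDR 0.00290), in 10 of 12 rats, but gave −0.81 with UniSp2 scaling (FDR 0.000377). rno-miR-34a-5p changed by −0.80 (SE 0.16, FDR 3.17e-05) and rno-miR-34b-3p by −1.60 (SE 0.36, FDR 0.000276). rno-miR-34c-3p gave −0.69 (SE 0.44, FDR 0.207) and was not called, except by limma-voom (FDR 0.0110), with UniSp2 scaling (FDR 4.21e-05) and without rat 25 (FDR 0.0493). The week 4 and week 8 contrasts share the week 8 or baseline samples and are no independent repeats.

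Except for the 1 RPM that was added to each level, ratios between members of 1 sample are free of the scaling. They were compared with the same rat's baseline as log2 ratios of RPM + 1 by the exact two-sided paired permutation test over 12 rats (15 tests, Benjamini-Hochberg adjusted). The ratio of rno-miR-34b-5p to rno-miR-34a-5p ranged from 0.0608 to 0.228 at baseline (median 0.128) and from 0.282 to 1.44 at week 8 (median 0.898). The ranges did not overlap, and the mean log2 change was 2.64 ± 0.74 SD, upward in 12 of 12 rats (exact p = 0.000488, adjusted p = 0.00183). rno-miR-34c-5p to rno-miR-34a-5p ranged from 0.164 to 0.371 at baseline and from 0.441 to 1.24 at week 8, again without overlap. Its mean log2 change was 1.53 ± 0.65, upward in 12 of 12 rats (exact p = 0.000488, adjusted p = 0.00183). With 40.3% of tested miRNAs called at week 8, ratios between other miRNAs could separate likewise, and their share was not counted.

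The 2 co-transcribed 5p arms moved apart as well. rno-miR-34b-5p to rno-miR-34c-5p had a median ratio of 0.481 at baseline and 1.16 at week 8, a mean log2 change of 1.12 ± 0.47 in 12 of 12 rats (exact p = 0.000488, adjusted p = 0.00183). At week 4 the same ratio had moved the other way, with a median of 0.285 and a mean log2 change of −0.66 ± 0.68, downward in 9 of 12 rats (exact p = 0.00830, adjusted p = 0.0199). rno-miR-34b-5p to rno-miR-34a-5p fell at week 4 by 0.66 ± 0.69, also in 9 of 12 rats (exact p = 0.00928, adjusted p = 0.0199). rno-miR-34c-5p to rno-miR-34a-5p gave −0.00078 ± 0.48 at week 4 (exact p = 0.995), and none of the 5 ratios passed at week 1.

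Within the Mir34b and Mir34c hairpins, the balance of arms moved towards 5p at week 8. Summed over the 12 rats, Mir34b gave 464 5p and 140 3p reads at baseline, 425 and 103 at week 1, 282 and 136 at week 4, and 1041 and 30 at week 8, or 3.31, 4.13, 2.07 and 34.7 reads of the 5p arm per read of the 3p arm. Per rat, the log2 ratio changed by 3.36 ± 0.97 at week 8, in 12 of 12 rats (exact p = 0.000488, adjusted p = 0.00183). Mir34c gave 975 5p and 117 3p reads at baseline and 1010 and 34 at week 8, or 8.33 and 29.7 per 3p read, with a change of 2.20 ± 1.81 in 10 of 12 rats (exact p = 0.00293, adjusted p = 0.00879). With 3p counts at 0 in 1 rat for Mir34b and 5 for Mir34c, the per-rat values at week 8 depend on the added 1 RPM and understate large ratios, while the read sums do not depend on it. With other pseudocounts or as a median, the change for Mir34c lay between 1.31 and 2.62. Neither arm ratio passed at week 4, where Mir34b gave −0.61 ± 1.19 (exact p = 0.104, adjusted p = 0.173). Among the marker miRNAs, arms of other hairpins also moved apart at week 8. There rno-miR-144-5p was called higher and rno-miR-144-3p lower, and rno-miR-142-3p higher and rno-miR-142-5p lower. The share of all hairpins whose arms moved apart was not counted. All week 8 libraries stood apart in UniSp2 reads, and the part of this in the arm ratios was not tested.

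**Figure D4:**
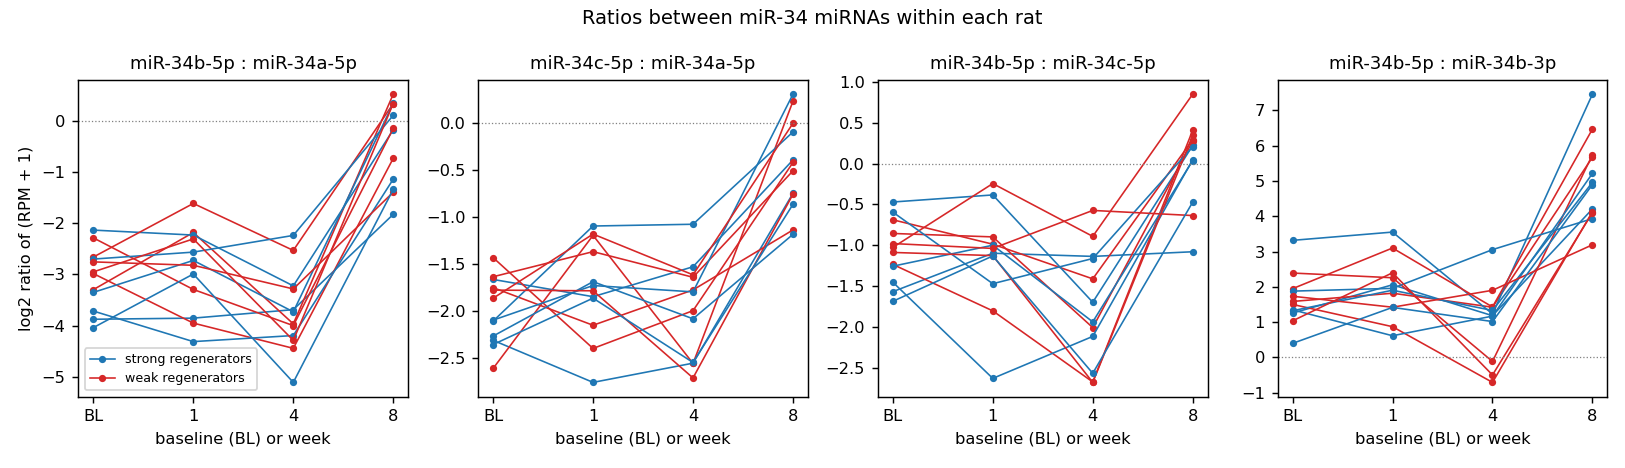
Log2 ratio of RPM + 1 between pairs of miR-34 miRNAs in each of the 12 rats (lines; strong regenerators blue, weak red) at baseline and weeks 1, 4 and 8; the dotted line marks equal levels. Every rat rose from baseline to week 8 in each panel, by a mean of 2.64, 1.53, 1.12 and 3.36 on the log2 scale.

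Whether the family differed between strong and weak regenerators was asked over all time points, at each time point and as a difference in the change from baseline. No member was called in any of these. Over all time points, 0 of 645 miRNAs were called (0%) by edgeR, DESeq2 or limma-voom, and 64, 41 and 32 had an unadjusted p below 0.05 in the 3 tools. For this comparison the study itself reported miRNAs significantly higher and lower in strong regenerators, none of them a miR-34 member. The reason for this difference was not tested. rno-miR-34b-3p was lower in strong regenerators by a log2 difference of −0.57 (SE 0.22, unadjusted p = 0.0135, FDR 0.272). The others gave 0.07 (SE 0.11) for rno-miR-34a-5p, −0.30 (SE 0.19) for rno-miR-34b-5p, −0.09 (SE 0.13) for rno-miR-34c-5p and −0.30 (SE 0.29) for rno-miR-34c-3p, with FDR values of at least 0.613. These fits treat the 4 samples of a rat as separate.

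By time point, edgeR called 0% of 645 miRNAs at baseline, week 1 and week 4, with 42, 32 and 25 at an unadjusted p below 0.05 (DESeq2 called none and had 32, 17 and 13 below it). At week 8 it called 1 (0.155%), rno-miR-203b-3p, which is no member and is named, after its value was seen, because it was the only call (log2 difference 2.13, SE 0.47, FDR 0.0223; DESeq2 called none). Among the 20 tests of members, 2 had an unadjusted p below 0.05. The first was rno-miR-34b-3p at week 4, at 2.98 to 11.1 RPM (median 7.98) in the 6 strong and 7.96 to 26.6 RPM (median 16.7) in the 6 weak regenerators, overlapping ranges with a log2 difference of −1.25 (SE 0.41, unadjusted p = 0.00391, FDR 0.851). The second was rno-miR-34c-3p at week 8 (−1.37, SE 0.68, unadjusted p = 0.0491, FDR 0.747), where 3 of 6 strong and 2 of 6 weak samples held no read. rno-miR-34b-5p at week 8 ranged from 57.7 to 175 RPM in strong and from 61.0 to 258 RPM in weak regenerators, again overlapping, and rose from baseline in 6 of 6 rats of each group.

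The change from baseline did not pass a test of difference between the groups for any member at any week (15 tests, lowest FDR 0.705), and 0% of 645 miRNAs were called at week 1, 4 or 8 by edgeR, with 27, 38 and 26 at an unadjusted p below 0.05 (DESeq2 called none and had 14, 31 and 19 below it). A p that misses the threshold does not show that the groups were alike. The plot of strong against weak regenerators shows the members' differences with their errors.

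**Figure D5:**
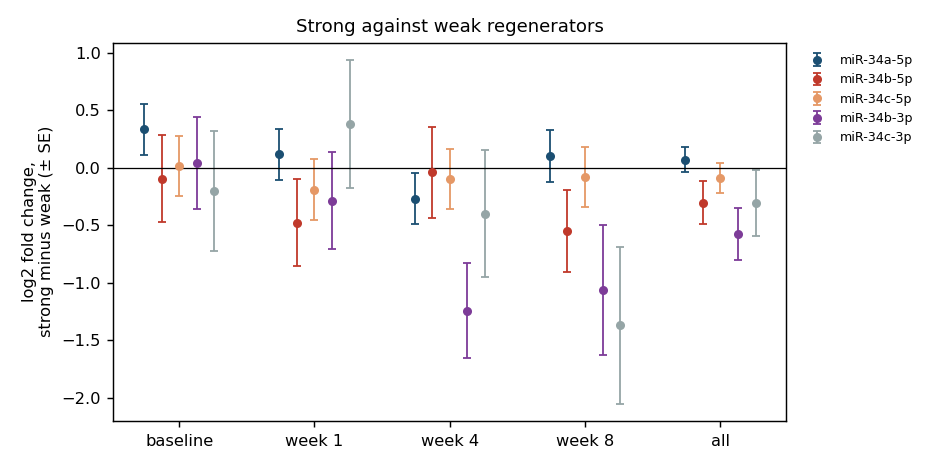
Log2 difference (strong minus weak regenerators) with its SE for each member at each time point (6 against 6 rats) and over all 48 samples. Values ran from −1.37 to 0.38 at single time points, widest for the 3p arms, and none passed an FDR of 0.05.

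Between rats, the correlation of the co-transcribed 5p arms was positive at every time point but did not pass the correction. Within time points, log2(RPM + 1) of rno-miR-34b-5p and rno-miR-34c-5p correlated over the 12 rats with Pearson's r = 0.69, 0.68, 0.63 and 0.64 from the first to the last time point (permutation p = 0.0149, 0.0168, 0.0291 and 0.0232, adjusted p = 0.0874 each over 12 correlations) and Spearman's rho = 0.64, 0.68, 0.62 and 0.54 (permutation p = 0.0274, 0.0179, 0.0373 and 0.0749, adjusted p = 0.1097, 0.1097, 0.112 and 0.180). Without the 2 rats farthest from the median of rno-miR-34b-5p, r was 0.60, 0.67, 0.36 and 0.57. Leaving out the farthest rats narrows the range and can itself lower r, so that the week 4 drop is not decisive. The counts of both can share misassigned reads. With UniSp2-scaled reads, r was 0.76 at baseline and 0.78 at week 1 (permutation, adjusted p = 0.0196 each). At weeks 4 and 8 it was 0.64 and 0.68, which did not pass. On that scale r of rno-miR-34c-5p with rno-miR-34a-5p was 0.70 at week 8 (permutation, adjusted p = 0.0196). Both miRNAs of a pair are then divided by the same UniSp2 reads, which can raise r. For rno-miR-34b-5p and rno-miR-34a-5p, r was then 0.25 at baseline and 0.51 at week 1. On the RPM scale, r of rno-miR-34a-5p was 0.02, 0.31, 0.48 and 0.09 against rno-miR-34b-5p. Against rno-miR-34c-5p it was 0.39, 0.42, 0.44 and 0.57 (lowest permutation p = 0.0419, adjusted p = 0.1005, with rho = 0.64 there, permutation p = 0.0270). For these pairs rho ran from −0.14 to 0.64. Whether these correlations differed from that of the co-transcribed arms was not tested.

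The miRNAs most like each 5p arm overlapped in part between the genes. Over the 48 samples, and among 307 other miRNAs with a mean of at least 10 RPM, log2(RPM + 1) of rno-miR-34a-5p went most closely with rno-miR-21-5p (r = 0.83), rno-miR-24-3p (0.82) and rno-miR-146a-5p (0.82). rno-miR-34b-5p went with rno-miR-26a-5p (0.87), rno-miR-361-3p (0.82) and rno-miR-30e-3p (0.79), and rno-miR-34c-5p with rno-miR-361-3p (0.63), rno-miR-155-5p (0.60) and rno-miR-26a-5p (0.58), a lesser likeness than to its partner rno-miR-34b-5p (0.74). After subtraction of the time point means, the closest were rno-miR-21-5p (0.69), rno-miR-200a-3p (0.69) and rno-miR-200b-3p (0.68) for rno-miR-34a-5p, rno-miR-26a-5p (0.67), rno-miR-99b-3p (0.57) and rno-miR-26b-5p (0.55) for rno-miR-34b-5p, and rno-miR-21-5p (0.63), rno-miR-7a-1-3p (0.63) and rno-miR-29a-3p (0.59) for rno-miR-34c-5p. These r describe samples that share rats, depth and time points.

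The miR-449 miRNAs carry the same seed as the miR-34 5p arms printed above and are known for acting with them in multiciliated cells. At week 8 only rno-miR-449c-5p was called, both values lay above 0 with TMM scaling, and their difference was not tested. rno-miR-449a-5p was read in all 48 samples (mean 36.6 RPM) at 24.5 to 55.6 RPM at baseline and 25.4 to 61.5 RPM at week 8, and its log2 fold change at week 8 was 0.26 (SE 0.20, FDR 0.317). rno-miR-449c-5p averaged 3.55 RPM, was read in 39 samples, and ranged from 0 to 3.61 RPM at baseline and from 1.88 to 32.3 RPM at week 8, with at most 4 reads per library at baseline. It rose by 2.45 (SE 0.48, FDR 2.97e-05), in 11 of 12 rats, and gave 0.67 (FDR 0.205) with UniSp2 scaling. Neither passed at week 4, and both were below the filter at week 1.

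Other miRNAs known as responsive to p53 or tied to its control were taken as a list of 10, of which 9 were counted. None of the list was called at week 1 (8 tested) or week 4 (9 tested). At week 8, 3 rose and 1 fell of 9 tested, with a median log2 fold change of −0.09 beside −0.12 for all miRNAs of at least 10 RPM, and the called share was near the background of 40.3%. By abundance, the first 4 were rno-miR-16-5p, a repressor of cell cycle genes (−0.09, SE 0.12, FDR 0.560), rno-miR-143-3p of smooth muscle (−0.22, SE 0.36, FDR 0.655), rno-miR-22-3p (0.75, SE 0.15, FDR 3.28e-05) and rno-miR-192-5p, abundant in liver and gut (−0.84, SE 0.18, FDR 0.000112). The other two calls, named after their values were seen, were rno-miR-107-3p (0.38, SE 0.11, FDR 0.00346) and rno-miR-145-5p (0.90, SE 0.26, FDR 0.00452). With UniSp2 scaling all 9 were below 0, from −1.04 to −2.68.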

How the data were processed

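Small RNA was extracted from plasma and libraries were made with a single-adapter ligation protocol. The authors trimmed reads with cutadapt 3.3, aligned them with Bowtie 1.3.0 and miRDeep2, first against the genome and next against rat mature miRNAs, and deposited raw read counts per mature miRNA. The methods name a rat assembly, whereas the submitters' processing notes name GRCh38.p12. No molecular identifiers were named, so that read floors cover counting error only. Sources also differ on the plasma volume.

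From the deposited counts, spike-ins were set aside (the UniSp2 reads serving for 1 alternative) and RPM was computed over the 645 miRNAs of each sample. edgeR 4.0.16 (quasi-likelihood, TMM) was fitted over all 48 samples, with a filter on mean RPM set from the number of calls by DESeq2's default rule. By that rule all 645 miRNAs were kept for week 4 against baseline and for every comparison between strong and weak regenerators. The study's methods name the quasi-likelihood model and such a filter, but state neither TMM nor 1 fit over all samples. The numbers of calls that the study reported differ from those here. DESeq2 1.42.0, limma 3.58.1, other scalings and filters, the rat as a block, and each rat left out were alternatives. Of the 645 miRNAs, 583 matched a RefSeq mature name. The edgeR step was tested on simulated data. Permutation tests were two-sided, with 100000 permutations for correlations. Samples with the same rat number come from the same animal, so that the pairing is real. The mean correlation of their deviations was 0.112, against −0.0293 between rats, and exceeded 0.1 in 6 of 12 rats. The p-values of the exact and permutation tests measure the spread between rats of 1 study. Those of the main edgeR fits measure the spread between samples, with the 4 samples of a rat treated as separate.

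The 5 members were named by rule with full values. miR-449 miRNAs were named by seed, 4 p53-responsive miRNAs by abundance, and 3 like miRNAs by correlation. The members and lists were chosen with earlier results of these data known.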

Additional observations from a re-analysis of the deposited data

Results flagged for a closer look

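Among 40 sets of 6 samples (5 members in 8 groups), 1 held a sample far from the others by Dixon's test, which flags about 1 in 20 by chance. It was rno-miR-34b-5p in strong regenerators at week 4, where rat 21 lay at 61.07 RPM (66 reads) and the next highest sample at 27.3 RPM. Without this rat the log2 fold change of rno-miR-34b-5p at week 4 was −0.75 (edgeR FDR 0.153).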

How the results depend on the processing

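At week 8, the changes of rno-miR-34a-5p, rno-miR-34b-5p, rno-miR-34b-3p and rno-miR-34c-5p kept their direction and call under every alternative except UniSp2 scaling, where rno-miR-34b-5p gave −0.087 and rno-miR-34c-5p −1.20 (−0.81 from week 4 to week 8). UniSp2 scaling called 499 miRNAs at week 8 and 61 at week 4, against 250 and 27. Calls over all miRNAs at week 1 were 50, but 32 with library-size scaling, 25 without the filter and 34 with limma-voom. The week 8 call of rno-miR-34c-3p was lost with RLE scaling (−0.94) and with only the 2 time points (−1.06), was not tested with filterByExpr, and ranged from −1.49 to −0.81 without each rat. With the replicate block (the rat), 1 member was called at week 4, as with UniSp2 scaling (also 1), and the block changed no other call of a member. The causes were not tested.

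Values near 0 turned sign without passing a test. At week 1 rno-miR-34b-5p gave −0.071 with library size, −0.032 with limma-voom, −0.012 with the replicate block, −0.22 with UniSp2 and −0.086 to 0.12 without each rat, and rno-miR-34c-5p gave −0.059 with library size, −0.22 with UniSp2 and −0.089 to 0.12 without each rat. At week 4 rno-miR-34b-3p gave −0.045 with library size, −0.13 with limma-voom, −0.29 with UniSp2 and −0.051 to 0.18 without each rat, and rno-miR-34c-5p gave 0.0053 with RLE, 0.0056 with DESeq2, 0.0021 with only the 2 time points and −0.099 to 0.062 without each rat. Between strong and weak regenerators over all time points, rno-miR-34c-5p gave 0.0022 with the samples of a rat summed and −0.16 to 0.030 without each rat, and rno-miR-34a-5p −0.028 to 0.14 without each rat. The week 4 ratio of rno-miR-34c-5p to rno-miR-34a-5p gave 0.0073 with a pseudocount of 5 RPM, 0.024 as a median and −0.095 to 0.084 without each rat. Without each rat, the week 1 ratio of rno-miR-34b-5p to rno-miR-34c-5p changed by −0.15 to 0.024, and their week 8 difference ran from −0.032 to 0.14. Correlations were also taken without the 2 rats farthest from the median of the first-named miRNA. There rno-miR-34b-5p and rno-miR-34a-5p correlated with −0.14 at week 1 and −0.035 at week 8, and rno-miR-34c-5p and rno-miR-34a-5p with −0.091 at week 1. All 5 week 8 ratio changes kept their direction and call under every alternative, but with other pseudocounts or medians the arm ratio of Mir34b moved between 2.57 and 3.58 and that of Mir34c between 1.31 and 2.62. Depth limits the 3p arms, with at most 24 reads of either in a library.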
